A study of Homo sapiens with 10 samples.

Results

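The genes described here are the clustered histone genes, most of which are replication-dependent. The cells are labelled as neural progenitor cells (NPCs) derived from the human embryonic stem cell line called H1. That name has nothing to do with histone H1. The genes were taken from a gene count table by symbol (H1-, H2AC, H2BC, H3C or H4C followed by digits), which gave 84 of 60898 rows. Of these rows, 34 held 10 or more counts in at least 2 libraries. Of the 34 genes, 29 are replication-dependent histone genes: 2 linker histone H1 genes, 6 H2A genes, 11 H2B genes, 3 H3 genes and 7 H4 genes. The name rule also took 5 genes of another kind, among them 4 that are described separately: the replication-independent linker histone H1-10, the antisense RNA H1-10-AS1, and the transcribed pseudogenes H2BC19P and H2BC20P. The other 50 rows stayed under the threshold, 15 of them with 0 counts in all 10 libraries. Just inside the threshold was H2BC6, with 16 and 18 counts in its 2 qualifying libraries, and just outside it were H2AC20 and H1-7, each with 15 counts in 1 library.

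The libraries come from 5 groups of 2: STAMBP knockout NPCs labelled as carrying CFLAR (KO+CFLAR), STAMBP knockout NPCs carrying STAMBP (KO+STAMBP), the STAMBP knockout lines KO1 and KO2, and unedited NPCs (WT). The levels of CFLAR and STAMBP, given with the rescue results, go against the KO+CFLAR label, so KO+CFLAR means only the libraries labelled that way. STAMBP is an endosomal deubiquitinase and CFLAR an inhibitor of caspase-8, and all libraries are labelled as NPCs of the same stem cell line at P3. NPC is used here only as the name in the labels. In the knockout, 10 of 12 neural progenitor markers were lower than in WT and 1 was higher. Of 12 epithelial markers, 11 were higher and 0 lower (39.4% of all genes were lower and 36.8% higher). Neither the knockout line that received the added gene nor the origin of the paired libraries (1 culture or separate ones) is stated, so p-values measure only the spread between these libraries. KO denotes the mean of KO1 and KO2 (4 libraries) throughout.

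Replication-dependent histone genes supply the histones that package newly copied DNA, and their mRNAs normally accumulate in S phase. These mRNAs end in a conserved stem-loop bound by SLBP instead of a poly(A) tail, and they are degraded when DNA synthesis stops. Several of the genes are also known to give longer, polyadenylated transcripts in cells that have left the cycle or are differentiating. H1-10 is a linker histone made outside S phase from polyadenylated mRNA.

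The stem-loop is the feature that separates these mRNAs from others, and its letters are shown because a kit that reads polyadenylated RNA would miss transcripts that end there. The labels name a TruSeq RNA library kit and do not state whether RNA was selected for poly(A). In GENCODE 29 transcripts on GRCh38, the 16-base histone stem-loop pattern (6-base arms that open with GG and close with CC, around a 4-base loop) was searched on the transcript strand in the first 100 bases past the stop codon and found in 23 of the 29 replication-dependent genes, against 64 of 19572 protein-coding genes with an annotated stop codon (0.327%). In 4 of the 29 genes, H1-2 and H2BC12 among them, all models end at the stop codon, which left no bases to search. The protein-coding genes include the histone genes themselves. The 16 bases follow for 5 genes that recur below, with the 6 bases of each stem arm in capitals and the 4-base loop in lower case.
H2AC6: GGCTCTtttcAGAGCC
H2BC4: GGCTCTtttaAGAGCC
H2BC21: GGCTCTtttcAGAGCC
H3C6: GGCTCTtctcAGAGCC
H4C8: GGCCCTtttcAGGGCC
H2AC18 and H2AC19, near-identical H2A genes, carry the same 16 letters as H2AC6. The annotated transcripts of the 29 genes often ran on past the stem-loop. In 23 of the 29 the longest model extended more than 100 bases past the stop codon (median over the 29, 569 bases), with 1114 bases after the stem-loop in H2AC6 and 1729 in H2BC21. Of the 31 replication-dependent rows under the count threshold that have an annotated stop codon, 2 had a model of that length and 26 ended at the stop codon itself. This is a description of the annotation, and a short model also leaves fewer bases for reads to be counted on.

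The 29 replication-dependent genes were more abundant in the knockout. Their summed level was 285, 300, 288 and 288 counts per 1000000 (CPM, on library sizes scaled by the trimmed mean of M-values, TMM) in the knockout libraries, against 65.8 and 68.8 CPM in the WT libraries. The mean was 290 ± 6.57 CPM in KO (SD, n = 4) and 67.3 ± 2.11 CPM in WT (SD, n = 2), a 4.31-fold difference with no overlap between groups. The summed level was 69.7 and 71.0 CPM in KO+CFLAR and 75.2 and 73.0 CPM in KO+STAMBP, so all 4 rescue libraries lay above both WT libraries and below every knockout library. Every class was higher in the knockout than in WT. H2B genes summed to between 137 and 153 CPM in the knockout libraries and 39.5 to 42.4 CPM in WT. H2A genes summed to between 82.7 and 88.1 CPM in the knockout and 10.6 to 11.9 CPM in WT, and H1 genes to between 23.1 and 25.7 CPM in the knockout and 2.15 to 2.27 CPM in WT. H4 genes summed to between 25.3 and 31.8 CPM in the knockout and 9.19 to 10.1 CPM in WT, and H3 genes to between 6.52 and 8.53 CPM in the knockout and 2.91 to 3.57 CPM in WT. In bulk RNA, fewer cells of a type and less RNA per cell cannot be told apart.

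**Figure D1:**
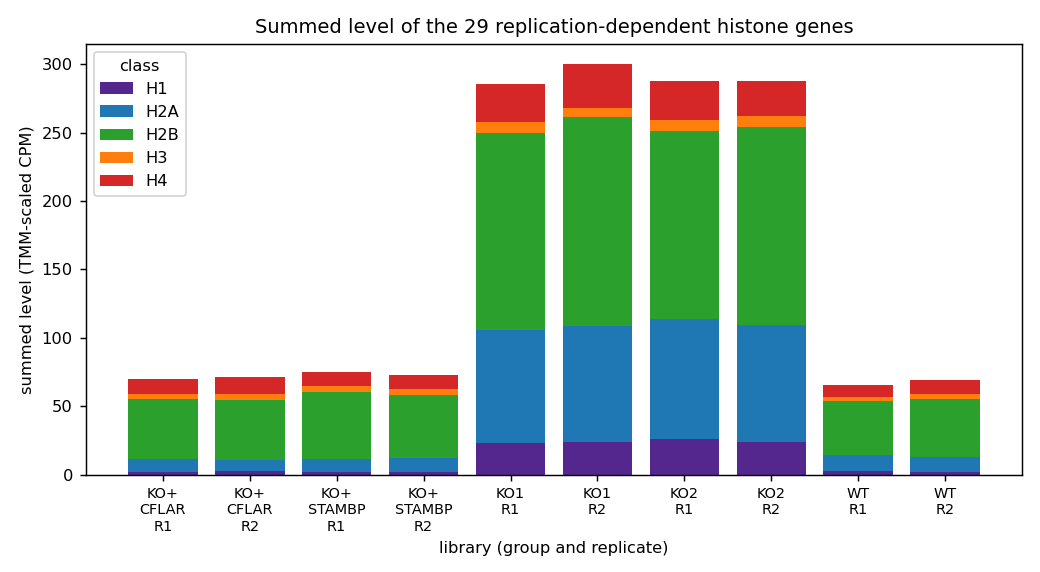
Summed level of the 29 replication-dependent histone genes in each library, in TMM-scaled CPM, stacked by histone class. The 4 knockout bars reach 285 to 300 CPM and the other 6 bars 65.8 to 75.2 CPM, with H2B genes holding the largest share of the CPM in each bar.

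The test across all genes (edgeR's quasi-likelihood F test, Benjamini-Hochberg adjusted p under 0.05) called 36.8% of 21063 genes higher and 39.4% lower in KO than in WT, so a call alone says little. Of the 29 replication-dependent genes, 21 were higher in KO, 2 were lower and 6 did not pass, with a median log2 fold change of 2.07 against -0.04 over all genes tested. Among H2B genes 9 of 11 were higher and none lower, and both H1 genes and all 3 H3 genes were higher. Among H2A genes 3 of 6 were higher and 1 lower, and among H4 genes 4 of 7 were higher and 1 lower. The 21 higher genes were called higher in each knockout line taken alone against WT. Since 9 of the 29 genes met the threshold with fewer than 2 libraries outside the knockout, the counts over all 62 replication-dependent rows are given too: 42 had a higher mean in KO, 12 a lower one and 8 were at 0 in both groups. Of these 62, the 33 rows under the threshold were 15 higher, 10 lower and 8 at 0 in both groups. Those 33 rows summed to between 1.93 and 2.54 CPM in the knockout and 1.66 to 1.80 CPM in WT. Among the 15 genes with 10 or more counts in both WT libraries, 12 were higher in KO and 1 lower. Their median log2 fold change was 1.49, below the 2.07 of all 29.

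**Figure D2:**
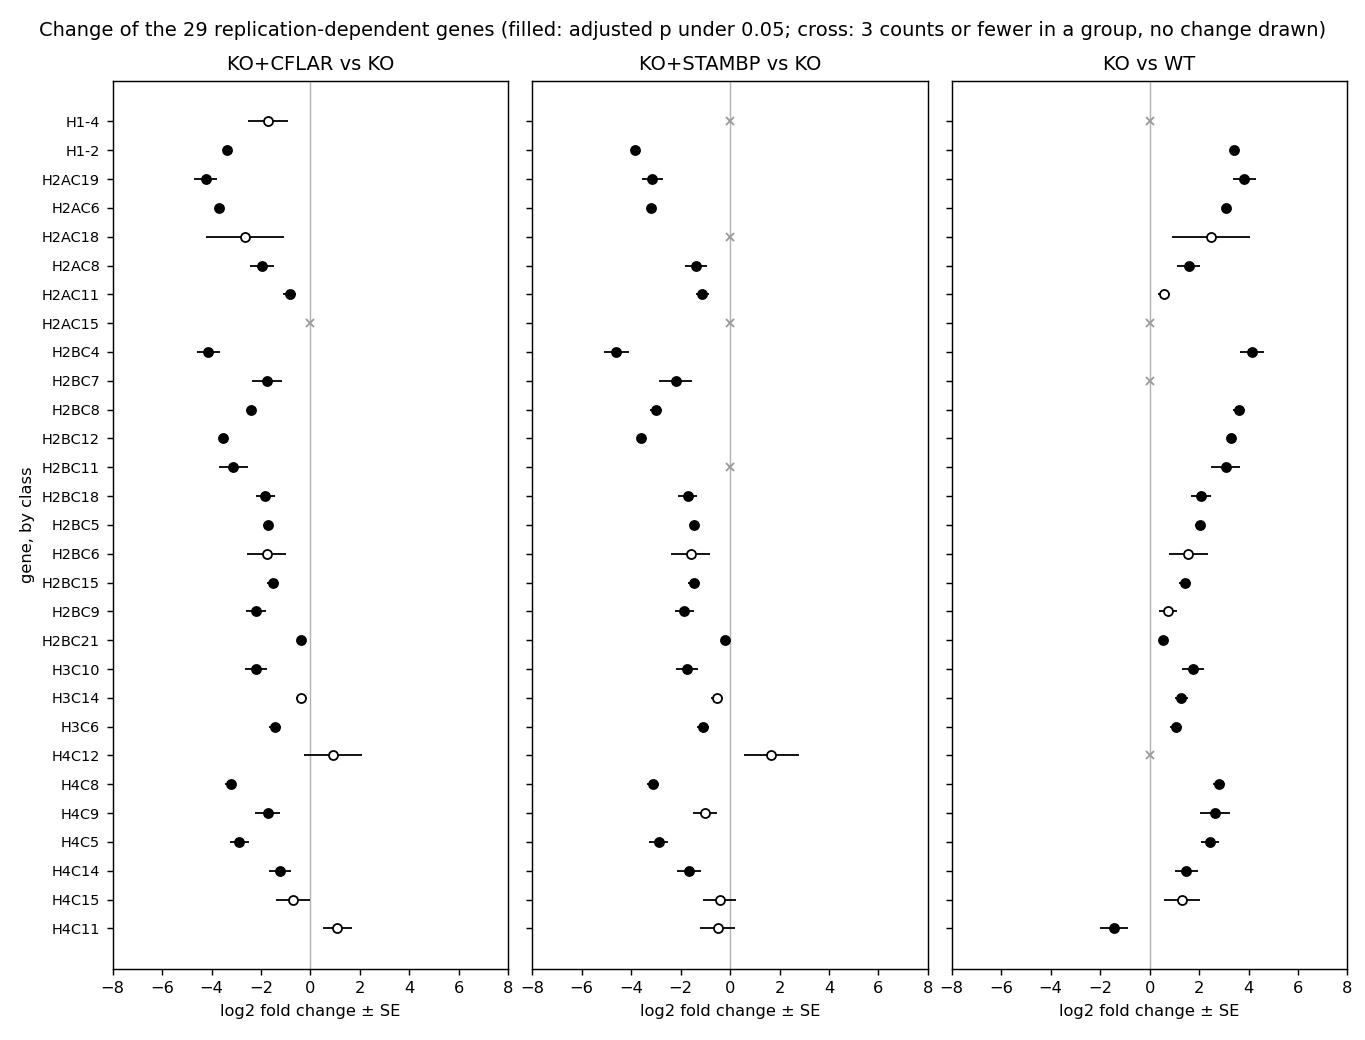
Log2 fold change with its standard error for each of the 29 replication-dependent genes in the knockout against WT (right) and in each rescue against the knockout (left and middle). Most genes lie right of 0 in KO vs WT and left of 0 in both rescue panels; crosses mark genes with 3 counts or fewer in a group, for which no fitted change is drawn.

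The linker histone H1-2, which compacts nucleosome arrays, had 22.5, 22.6, 25.6 and 22.9 CPM in the knockout libraries, against 2.21 and 2.15 CPM in WT. Groups did not overlap, and the log2 fold change was 3.42 ± 0.14 (SE, adjusted p = 1.51e-11). KO+CFLAR libraries had 1.96 and 2.59 CPM and KO+STAMBP libraries 1.75 and 1.497 CPM of H1-2, all below every knockout library. H1-4, the other replication-dependent linker histone counted, was sparse, with 38 counts in the 4 knockout libraries and 1 count in the 2 WT libraries, a ratio of 21.7 with a 95% counting interval of 3.66 to 879. The library KO2 R1 held 1 of those 38 counts, and the call of H1-4 (adjusted p = 0.00587) was lost without KO2 R2 (adjusted p = 0.118) or without WT R2 (adjusted p = 0.073).

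H2AC6, an H2A gene of the large cluster on chromosome 6, had 38.3, 39.4, 41.3 and 38.2 CPM in the knockout libraries, against 5.12 and 4.21 CPM in WT (log2 fold change 3.08 ± 0.10, adjusted p = 1.02e-12). It is paired head to head with H2BC4, whose start lies 219 bases away on the other strand. H2BC4 had 3.19, 3.45, 3.77 and 2.94 CPM in the knockout libraries and 0.0582 and 0.293 CPM in WT (log2 fold change 4.13 ± 0.48, adjusted p = 2.01e-06). Neither gene of this pair overlapped between knockout and WT libraries. KO+CFLAR libraries had 2.89 and 3.17 CPM of H2AC6, and KO+STAMBP libraries had 4.28 CPM in each, and H2AC6 was called lower in KO+CFLAR than in WT (log2 fold change -0.61 ± 0.15, adjusted p = 0.00629), a call lost without WT R1 (adjusted p = 0.0738).

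In 2 other head-to-head pairs both genes are replication-dependent and were counted. H2BC8 had 8.20, 11.4, 9.13 and 9.24 CPM in the knockout libraries and 0.640 and 0.880 CPM in WT (log2 fold change 3.61 ± 0.25, adjusted p = 6.76e-09), and its partner H2AC8 averaged 1.37 ± 0.39 CPM in KO (n = 4) and 0.453 ± 0.018 CPM in WT (n = 2), also called higher (log2 fold change 1.58 ± 0.46, adjusted p = 0.00622). H2BC11 had 1.54, 2.02, 2.38 and 1.501 CPM in the knockout and 0.291 and 0.147 CPM in WT (log2 fold change 3.07 ± 0.60, adjusted p = 0.000307). Its partner H2AC11, 292 bases away, averaged 2.78 ± 0.612 CPM in KO and 1.86 ± 0.0786 CPM in WT and did not pass the test (log2 fold change 0.58 ± 0.26, adjusted p = 0.0564). It passed without KO2 R1 (adjusted p = 0.0129), under median-of-ratios scaling (adjusted p = 0.0458) and with at least 50 counts in 2 libraries (adjusted p = 0.0484). The difference between the changes of H2BC11 and H2AC11 was not tested. H2BC12 and H2BC21 pair with H2A genes under the count threshold, H2AC12 and H2AC20.

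H2BC12 on chromosome 6 and H2BC21 on chromosome 1 are H2B genes known to give polyadenylated transcripts. H2BC12 had 69.8, 74.1, 70.8 and 72.9 CPM in the knockout libraries and 7.10 and 7.63 CPM in WT (log2 fold change 3.28 ± 0.07, adjusted p = 1e-14). H2BC21 had 40.7, 41.2, 35.3 and 38.4 CPM in the knockout libraries and 25.3 and 28.6 CPM in WT (log2 fold change 0.52 ± 0.07, adjusted p = 6.76e-06). Neither gene overlapped between the groups. The knockout mean was 9.76-fold the WT mean for H2BC12 and 1.44-fold for H2BC21, and the difference between their changes was not tested. H2BC12 shares 50.5% of its 75-base stretches with other genes, and 42.3% with the closest of them, H2BS1, a gene listed at 0 in every library. H2BC5, an H2B gene that has a stem-loop form and a longer form in the annotation, had 10.4, 10.4, 9.46 and 9.64 CPM in the knockout and 2.62 and 2.25 CPM in WT (log2 fold change 2.04 ± 0.19, adjusted p = 1.32e-07).

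The promoters of 4 of these genes are shown because H2BC4 and H2AC6, both called higher, share one, and because H2BC12, H2BC21 and H1-2, all called higher, let promoters with and without the octamer motif be set side by side. Each line gives the 250 bases before the RefSeq start on GRCh38.p14, minus strand, 5′ to 3′, with the octamer ATTTGCAT, the motif that POU2F1 binds in H2B promoters, in capitals where present.
H2BC4 (chr6:26123927-26124176): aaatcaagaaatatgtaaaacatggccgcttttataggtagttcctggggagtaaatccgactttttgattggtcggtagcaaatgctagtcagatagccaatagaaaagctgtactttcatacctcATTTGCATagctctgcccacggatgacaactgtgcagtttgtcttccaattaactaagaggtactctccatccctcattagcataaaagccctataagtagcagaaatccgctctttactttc
H2BC12 (chr6:27146859-27147108): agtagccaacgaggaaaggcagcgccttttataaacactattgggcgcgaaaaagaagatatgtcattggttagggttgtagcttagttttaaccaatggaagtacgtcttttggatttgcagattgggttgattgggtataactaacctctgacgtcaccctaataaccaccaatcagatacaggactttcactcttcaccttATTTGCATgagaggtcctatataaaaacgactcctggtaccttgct
H2BC21 (chr1:149886683-149886932): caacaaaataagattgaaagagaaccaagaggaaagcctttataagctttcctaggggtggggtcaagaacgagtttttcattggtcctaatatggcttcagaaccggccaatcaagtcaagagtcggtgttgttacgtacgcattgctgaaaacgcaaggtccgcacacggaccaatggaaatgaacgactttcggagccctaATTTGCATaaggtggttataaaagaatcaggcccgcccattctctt
H1-2 (chr6:26056471-26056720): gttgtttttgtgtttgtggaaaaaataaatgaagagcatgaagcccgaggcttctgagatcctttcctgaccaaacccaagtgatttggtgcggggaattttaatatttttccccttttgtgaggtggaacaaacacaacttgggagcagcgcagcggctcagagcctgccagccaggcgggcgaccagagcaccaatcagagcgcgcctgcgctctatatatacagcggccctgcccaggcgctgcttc
The octamer, searched on both strands, stood in this window in 9 of the 11 H2B genes counted, in 12 of the 29 replication-dependent genes (41.4%) and in 1.66% of 27305 promoters of the same length. CCAAT, searched on both strands, stood in 79.3% of the 29 genes and 33.0% of all promoters. TATAAA, searched on the gene's strand only, stood in 51.7% of the 29 genes and 7.17% of all promoters. The replication-dependent rows under the count threshold held them too, in 42.9% for the octamer, 89.3% for CCAAT and 64.3% for TATAAA of 28 promoters. H2BC12 (log2 fold change 3.28) and H2BC21 (0.52) both carry the octamer, and H1-2 (3.42) does not. A match is a description of these letters and not a measured site.

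H3 and H4 genes form the core tetramer of the nucleosome. H3C6 had 3.52, 2.67, 3.31 and 3.70 CPM in the knockout and 1.34 and 1.81 CPM in WT (log2 fold change 1.06 ± 0.25, adjusted p = 0.00141). H3C10 averaged 1.51 ± 0.0841 CPM in KO (n = 4) and 0.434 ± 0.285 CPM in WT (n = 2), and H3C14 averaged 2.98 ± 0.435 CPM in KO (n = 4) and 1.23 ± 0.151 CPM in WT (n = 2). All 3 H3 genes were called higher. All 75-base stretches of H3C14 (100%) are shared with H3C15, which was not analysed here, so its values and calls depend on how such reads were assigned. H4C8 had 7.93, 9.12, 8.33 and 6.87 CPM in the knockout and 1.34 and 0.978 CPM in WT (log2 fold change 2.80 ± 0.23, adjusted p = 4.42e-08), and H4C5 averaged 2.75 ± 0.586 CPM in KO and 0.497 ± 0.127 CPM in WT (log2 fold change 2.44 ± 0.37, adjusted p = 2.99e-05). H4C14 overlaps H3C14 on the other strand by 230 bases and is given below as a sum with its copy.

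In 3 pairs of near-identical copies the split of counts between the copies varied among libraries of one group, so each pair is also given as a sum. H2AC18 and H2AC19 lie on chromosome 1 and share 100% and 96.9% of their 75-base stretches with each other. H2AC18 had 0, 15.2, 0 and 21.7 CPM in the knockout libraries and 3.38 and 0 CPM in WT, while H2AC19 had 40.5, 25.7, 43.8 and 20.96 CPM in the knockout and 0.873 and 3.52 CPM in WT. Their sum was 40.5, 40.9, 43.8 and 42.7 CPM in the knockout libraries and 4.25 and 3.52 CPM in WT. Alone, H2AC19 was called higher in KO (log2 fold change 3.83 ± 0.46, adjusted p = 2.63e-06) and H2AC18 was not (2.50 ± 1.58, adjusted p = 0.166). Fitted as 1 feature, an alternative added after the data were seen, the sum was higher in KO by a log2 fold change of 3.44 ± 0.12 (adjusted p = 9.5e-13). The H4C14 and H4C15 sum was 14.2, 17.7, 16.3 and 12.9 CPM in the knockout and 5.18 and 5.87 CPM in WT (log2 fold change 1.46 ± 0.15, adjusted p = 4.69e-07). H4C14 alone was called higher (log2 fold change 1.49, adjusted p = 0.0116) and lost the call without KO1 R1 (adjusted p = 0.0563), without WT R2 (adjusted p = 0.143) and in DESeq2 (adjusted p = 0.0551). The H4C11 and H4C12 sum went the other way, with 1.43, 1.24, 1.26 and 1.27 CPM in the knockout and 2.15 and 2.49 CPM in WT (log2 fold change -0.84 ± 0.24, adjusted p = 0.0055). That pair is where one of the 2 lower calls came from: H4C11 alone was called lower (log2 fold change -1.43 ± 0.57, adjusted p = 0.035), but lost the call without KO1 R1 (adjusted p = 0.071), without WT R1 (adjusted p = 0.0721), without WT R2 (adjusted p = 0.14) and in DESeq2 (adjusted p = 0.219).

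**Figure D3:**
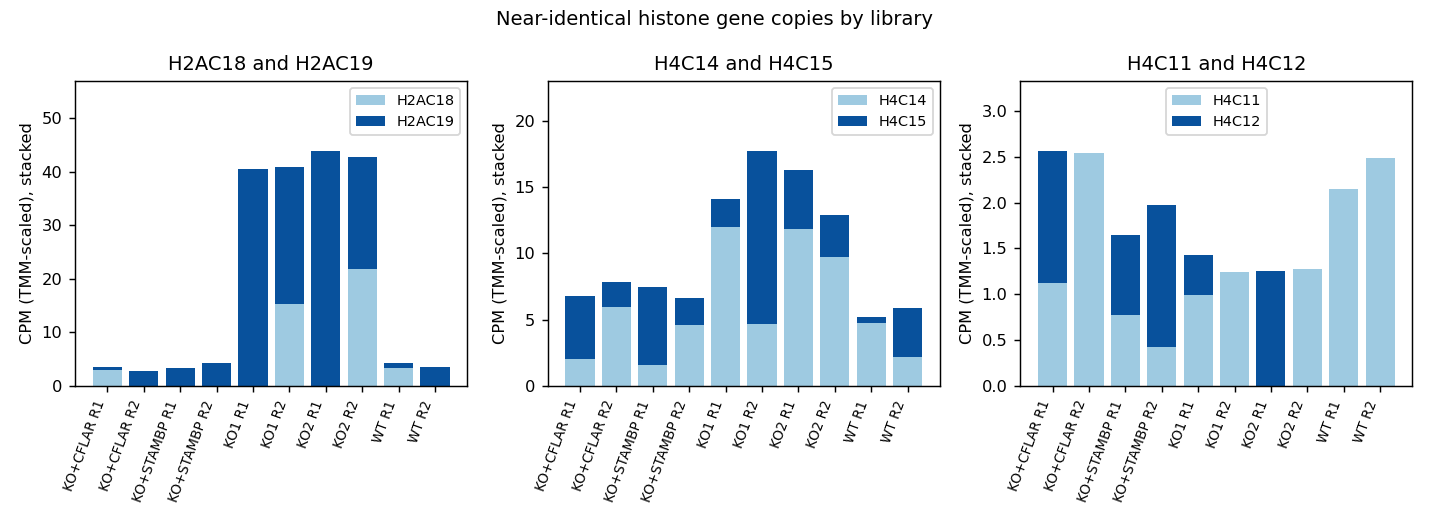
Levels of 3 pairs of near-identical histone gene copies in each library, in TMM-scaled CPM, stacked. The share of each copy varied between libraries of one group, while the height of the bar was alike within groups: 40.5 to 43.8 CPM in knockout libraries and 3.52 to 4.25 CPM in WT for H2AC18 with H2AC19.

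The other lower call was H2AC15, with 3 counts in the 4 knockout libraries, all of them in KO2 R2, and 15 counts in the 2 WT libraries (ratio 0.114, 95% counting interval 0.0212 to 0.404). Its call was lost with KO2 as the only knockout line (adjusted p = 0.0976). H2AC15 overlaps H2BC15 on the other strand by 393 bases, and no source used here gives the strand setting of the counting. H2BC15 averaged 3.27 ± 0.574 CPM in KO (n = 4) and 1.19 ± 0.117 CPM in WT (n = 2) and was called higher (log2 fold change 1.43 ± 0.25, adjusted p = 0.000112). The 6 replication-dependent genes that did not pass were H2AC11, H2AC18, H2BC6, H2BC9, H4C12 and H4C15; 3 of these, H2AC18, H4C12 and H4C15, are copies described above.

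The 8 histone genes listed as known to give polyadenylated transcripts were H1-2, H2AC6, H2BC4, H2BC5, H2BC11, H2BC12, H2BC21 and H4C8. All 8 were called higher in KO (36.8% of all genes were higher and 39.4% lower), with a median log2 fold change of 3.08. They summed to between 193 and 202 CPM in the knockout libraries and 44.1 to 46.3 CPM in WT. The 21 replication-dependent genes not on the list were 13 higher and 2 lower (median 1.58), and summed to 93.4 ± 3.26 CPM in KO (n = 4) and 22.2 ± 0.55 CPM in WT (n = 2). H2BC4 and H2BC11 on the list, and H1-4, H2BC6, H2BC7 and H4C9 off it, reached 10 counts only in knockout libraries. These genes entered both sets only through the knockout, and the list was drawn up with earlier results known, so the calls and medians are descriptions. As sums, the list differed 4.36-fold and the other genes 4.22-fold between KO and WT. Single features weigh heavily in both sums. H2BC21 averaged 38.9 CPM in KO and 27.0 CPM in WT, within list sums of 197 and 45.2 CPM. Among the other genes, H2AC18 with H2AC19 averaged 42.0 CPM in KO and 3.88 CPM in WT. The folds of the sums therefore do not describe the typical gene of either set. The RNAs without a poly(A) tail that were looked up were scarce in these libraries. RN7SK stood at 1.27 to 3.84 CPM in the knockout and 0.466 to 0.538 CPM in WT. In the rescues RN7SK stood at 0 to 1.58 CPM in KO+CFLAR and 0.619 to 0.748 CPM in KO+STAMBP. RMRP stood at up to 0.782 CPM in the knockout and up to 0.147 CPM in WT, and RPPH1 at 0.231 to 1.63 CPM and up to 0.147 CPM. In the rescues RMRP stood at up to 0.14 CPM in KO+CFLAR and at 0 in KO+STAMBP. RPPH1 stood at 0.408 to 0.466 CPM in KO+CFLAR and 0.0516 to 0.0535 CPM in KO+STAMBP. Each of these RNAs had its highest level in a knockout library, and how that bears on the histone counts was not tested. Whether the stem-loop or the polyadenylated forms of a histone mRNA were counted was not tested, since the table holds 1 value per gene.

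**Figure D4:**
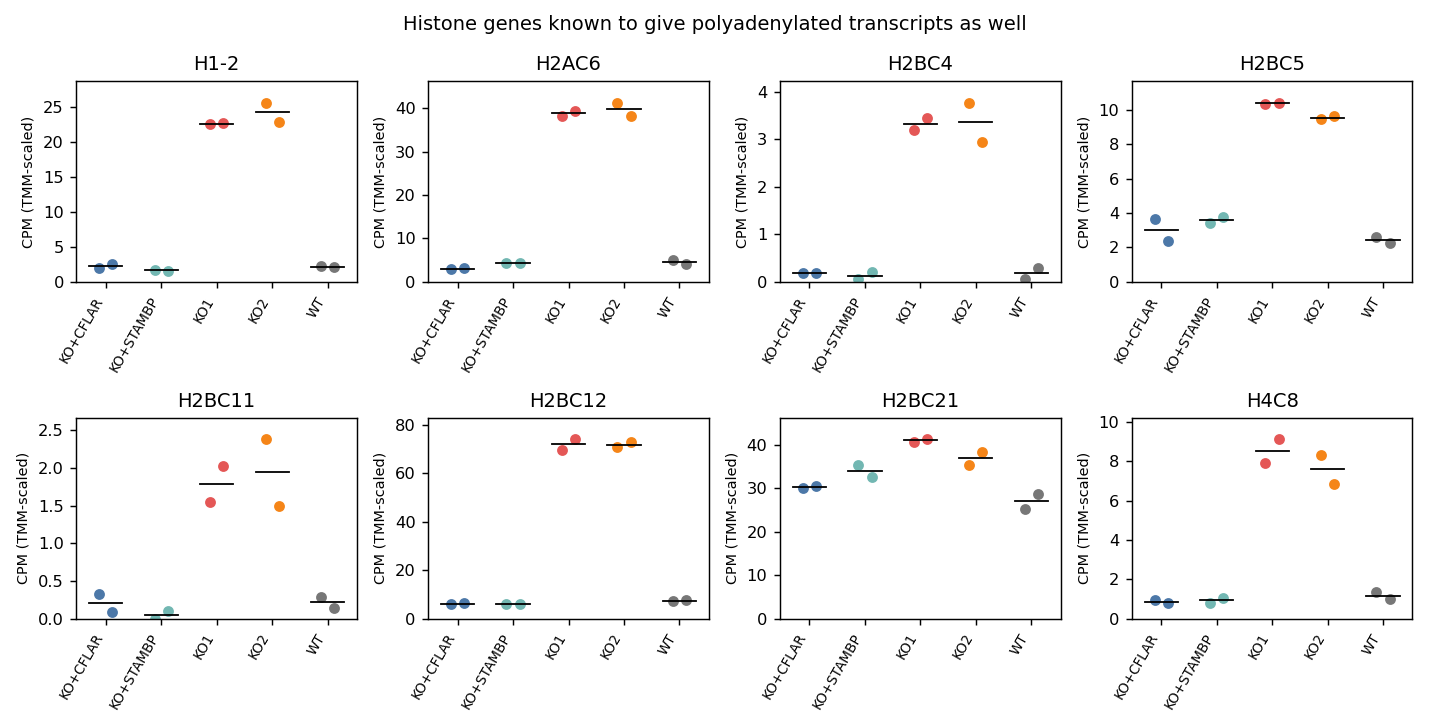
Level of each of the 8 histone genes known to give polyadenylated transcripts, in TMM-scaled CPM, by group (points: libraries, line: mean of 2 libraries). Knockout points stand above every other group in each panel except H2BC21, where the KO+STAMBP libraries at 35.4 and 32.6 CPM lie 1 above and 1 below the lowest knockout library at 35.3 CPM.

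The libraries labelled KO+CFLAR had lower replication-dependent histone levels than the knockout. Against KO, 21 of the 29 genes were lower and 1 was higher (38% of all genes lower and 40% higher), with a median log2 fold change of -1.78 against 0.04 over all genes. Since 9 of the 29 met the threshold with fewer than 2 libraries outside the knockout, lower values in a rescue are partly built in. Among the 15 genes with 10 or more counts in both WT libraries, 13 were lower and 0 higher (median -1.73). H2BC12 had 5.96 and 6.26 CPM in KO+CFLAR (log2 fold change -3.55 ± 0.07 against KO, adjusted p = 3.77e-15), and H4C8 0.932 and 0.771 CPM (-3.23 ± 0.24, adjusted p = 1.06e-08). The sum of H2AC18 and H2AC19 was 3.49 and 2.81 CPM in KO+CFLAR (log2 fold change -3.73 ± 0.12 against KO, adjusted p = 3.61e-13). The sum of H4C14 and H4C15 was lower too (log2 fold change -1.06 ± 0.14 against KO, adjusted p = 6.84e-06), and the sum of H4C11 and H4C12 was higher (0.97 ± 0.23 against KO, adjusted p = 0.00158). The single gene called higher was H2AC15, with 22 counts in KO+CFLAR and 3 in KO. The level of CFLAR in the libraries labelled KO+CFLAR was not above WT: it was 29.4 to 31.3 CPM in KO+CFLAR, 247 to 264 CPM in KO and 30.4 to 34.2 CPM in WT, and STAMBP was 40.05 to 42.9 CPM in KO+CFLAR, 16.9 to 19.5 CPM in KO and 43.4 to 47.2 CPM in WT.

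With STAMBP added, 22 of the 29 genes were lower than in KO and none was higher (37.8% of all genes lower and 40.1% higher), with a median log2 fold change of -1.72 against 0.04 over all genes. The limit given for KO+CFLAR holds here too. Among the 15 genes with 10 or more counts in both WT libraries, 13 were lower and 0 higher (median -1.64). H2BC12 had 6.03 and 5.83 CPM in KO+STAMBP (log2 fold change -3.60 ± 0.08 against KO, adjusted p = 5.1e-15), and H4C8 0.774 and 1.07 CPM (-3.12 ± 0.24, adjusted p = 1.85e-08). H2BC21 had 35.4 and 32.6 CPM in KO+STAMBP (log2 fold change -0.19 ± 0.07 against KO, adjusted p = 0.0158). Its call was lost without KO2 R2 (adjusted p = 0.0578), without KO+STAMBP R2 (adjusted p = 0.216) and with KO2 as the only knockout line (adjusted p = 0.182), and under library-size scaling the log2 fold change was 0.02 (adjusted p = 0.792). As sums, H2AC18 with H2AC19 (log2 fold change -3.50 ± 0.12 against KO, adjusted p = 7.8e-13) and H4C14 with H4C15 (-1.11 ± 0.14, adjusted p = 5.59e-06) were lower in KO+STAMBP, and H4C11 with H4C12 did not pass (0.48 ± 0.25, adjusted p = 0.0927). H2BC11 had 2 counts in the KO+STAMBP libraries and 121 in the knockout libraries, a ratio of 0.0286 with a 95% counting interval of 0.00343 to 0.106. STAMBP was 40.4 to 45.3 CPM in KO+STAMBP.

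Against WT, 2 of the 29 genes were higher and 2 lower in KO+CFLAR (15.8% of all genes higher and 17.9% lower). H2BC8 had 1.49 and 2.09 CPM in KO+CFLAR and 0.640 and 0.880 CPM in WT (log2 fold change 1.21 ± 0.32, adjusted p = 0.00869), a call lost without KO+CFLAR R2 (adjusted p = 0.0839) or WT R1 (adjusted p = 0.0724). H3C14 had 1.96 and 2.68 CPM in KO+CFLAR and 1.34 and 1.125 CPM in WT (0.91 ± 0.30, adjusted p = 0.0276), a call lost without KO+CFLAR R2 (adjusted p = 0.205), WT R1 (adjusted p = 0.0624) or WT R2 (adjusted p = 0.159). The lower genes were H2AC6, described above, and H2BC9, an H2B gene of the chromosome 6 cluster. H2BC9 had 0.373 and 0.272 CPM in KO+CFLAR and 1.05 and 0.782 CPM in WT (-1.48 ± 0.47, adjusted p = 0.0246), a call lost without KO+CFLAR R1 (adjusted p = 0.056), KO+CFLAR R2 (adjusted p = 0.135) or WT R1 (adjusted p = 0.133). In KO+STAMBP 2 genes were higher and 2 lower than in WT (16.4% of all genes higher and 18.5% lower): H2BC21 was higher (0.33 ± 0.08, adjusted p = 0.00419) and H2BC12 lower (-0.32 ± 0.11, adjusted p = 0.042), and the other calls were the copies H4C12 and H4C11, whose sum did not pass (-0.36 ± 0.27, adjusted p = 0.342). The H2BC21 call against WT was lost without KO+STAMBP R1 (adjusted p = 0.06) or WT R1 (adjusted p = 0.0596), and the H2BC12 call against WT was lost without KO2 R1 (adjusted p = 0.0517), KO+STAMBP R1 (adjusted p = 0.11), KO+STAMBP R2 (adjusted p = 0.171), KO+CFLAR R1 (adjusted p = 0.0508), WT R1 (adjusted p = 0.0647) or WT R2 (adjusted p = 0.256). In DESeq2 the calls of H3C14 and H2BC9 in KO+CFLAR (adjusted p = 0.0696 and 0.0727) and of H2BC12 in KO+STAMBP (adjusted p = 0.105) were lost. The comparisons of a rescue with KO and of KO with WT share the knockout libraries, so their values are given side by side and not as separate evidence.

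No difference between the knockout lines was called in these genes. edgeR called 0 of the 34 genes between KO1 and KO2, with 0 at an unadjusted p under 0.05, and DESeq2 called 0; over all genes 0.157% were called. The summed replication-dependent level was 293 ± 10.2 CPM in KO1 and 288 ± 0.139 CPM in KO2 (SD, n = 2 each). Between KO+CFLAR and KO+STAMBP edgeR called 0 of the 34 genes, with 4 at an unadjusted p under 0.05, and DESeq2 called 0; over all genes 1.09% were called.

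H1-10, a linker histone made outside S phase, was lower in the knockout. H1-10 had 165, 141, 145 and 144 CPM in the knockout and 360 and 377 CPM in WT (log2 fold change -1.31 ± 0.05, adjusted p = 2.81e-12). The groups did not overlap. H1-10 was 386 and 400 CPM in KO+CFLAR and 388 and 377 CPM in KO+STAMBP and did not pass against WT in either. The antisense RNA H1-10-AS1, which overlaps H1-10 by 886 bases, averaged 1.70 ± 0.325 CPM in KO (n = 4) and 3.10 ± 0.643 CPM in WT (n = 2) and was called lower (log2 fold change -0.86 ± 0.28, adjusted p = 0.0114), a call lost without WT R1 (adjusted p = 0.119). Reads within the 886 bases that H1-10 and H1-10-AS1 share cannot be told apart without strand. The pseudogenes H2BC19P and H2BC20P, which lie between H2AC18 and H2AC19 and overlap each other by 1989 bases, averaged 9.50 ± 1.56 and 20.8 ± 2.89 CPM in KO, and 7.84 ± 1.29 and 13.6 ± 0.471 CPM in WT, and H2BC20P alone was called higher (0.61 ± 0.13, adjusted p = 0.000902). H2BC19P starts 139 bases from H2AC18, and H2BC20P 124 bases from H2AC19, head to head.

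Genes of S phase DNA replication were lower in the knockout. All 20 genes of a list of replication factors were lower in KO (39.4% of all genes; median log2 fold change of the list -1.95), and they summed to between 431 and 455 CPM in the knockout libraries and 1577 to 1610 CPM in WT. RRM2, a subunit of ribonucleotide reductase, averaged 13.7 ± 1.09 CPM in KO (n = 4) and 135 ± 0.354 CPM in WT (n = 2; log2 fold change -3.30 ± 0.05, adjusted p = 2.51e-16), and MCM4, part of the replicative helicase, averaged 57.2 ± 0.534 CPM in KO and 215 ± 1.66 CPM in WT (-1.91 ± 0.03, adjusted p = 1.14e-15). In the rescues the list summed to 1156 to 1185 CPM in KO+CFLAR and to 1056 to 1069 CPM in KO+STAMBP, above KO and below WT. All 20 were higher than KO in KO+CFLAR (40% of all genes) and in KO+STAMBP (40.1% of all genes). Against WT 16 were lower in KO+CFLAR (17.9% of all genes) and 18 in KO+STAMBP (18.5% of all genes). The 29 replication-dependent histone genes summed to 69.7 to 75.2 CPM in the 4 rescue libraries and 65.8 to 68.8 CPM in WT.

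Machinery for histone transcription and mRNA processing held calls in both directions: of 20 genes 10 were higher and 6 lower in KO (36.8% of all genes higher and 39.4% lower; median log2 fold change of the list 0.13), shares near those of all genes. SLBP, the stem-loop binding protein, averaged 52.1 ± 2.18 CPM in KO and 48.3 ± 0.758 CPM in WT and did not pass (log2 fold change 0.11 ± 0.05, adjusted p = 0.0702; -0.07 with library-size scaling and adjusted p = 0.259). It passed without KO2 R1 (adjusted p = 0.0379), under median-of-ratios scaling (adjusted p = 0.0256) and with at least 50 counts in 2 libraries (adjusted p = 0.0414). NPAT, the coactivator of histone transcription, averaged 39.3 ± 1.41 CPM in KO and 30.5 ± 1.295 CPM in WT (0.37 ± 0.06, adjusted p = 6.76e-05). ERI1, an exonuclease that trims histone mRNA ends, was higher (0.76 ± 0.06, adjusted p = 1.25e-08), and LSM11, a subunit of the U7 particle that processes histone mRNA, lower (-0.72 ± 0.07, adjusted p = 1.58e-07). The largest changes of the list were lower levels of E2F1 (-4.15 ± 0.11, adjusted p = 7.82e-14) and CCNE2 (-2.98 ± 0.18, adjusted p = 9.5e-10), which drive entry into S phase, and a higher level of CDK2 (1.11 ± 0.04, adjusted p = 5.51e-12).

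Histone variants were taken from a list drawn up as replication-independent, and of its 15 genes 12, H1-10 included, were tested. These variants were mostly lower, with 3 higher and 9 lower in KO (36.8% of all genes higher and 39.4% lower, median log2 fold change of the list -1.13). Whether each gene on the list, H2AX among them, is replication-independent was not tested. H2AZ2 averaged 120 ± 2.64 CPM in KO (n = 4) and 362 ± 12.4 CPM in WT (n = 2; -1.60 ± 0.03, adjusted p = 3.8e-15), H2AX, the variant phosphorylated at DNA breaks, averaged 43.5 ± 2.50 CPM in KO and 182 ± 4.13 CPM in WT (-2.06 ± 0.05, adjusted p = 1.13e-14), and MACROH2A2 averaged 41.1 ± 2.09 CPM in KO and 138 ± 3.85 CPM in WT (-1.75 ± 0.05, adjusted p = 7.62e-14). H2AJ and H3-3B were among the higher variants (1.56 ± 0.11, adjusted p = 5.16e-09, and 0.57 ± 0.03, adjusted p = 1.05e-10). Of 18 histone chaperones and assembly factors 15 were lower and 3 higher in KO (39.4% of all genes lower and 36.8% higher; median of the list -0.65), among them NASP, which holds soluble H3 and H4, at 75.2 ± 1.37 CPM in KO and 328 ± 1.75 CPM in WT (-2.13 ± 0.03, adjusted p = 1.17e-16).

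**Figure D5:**
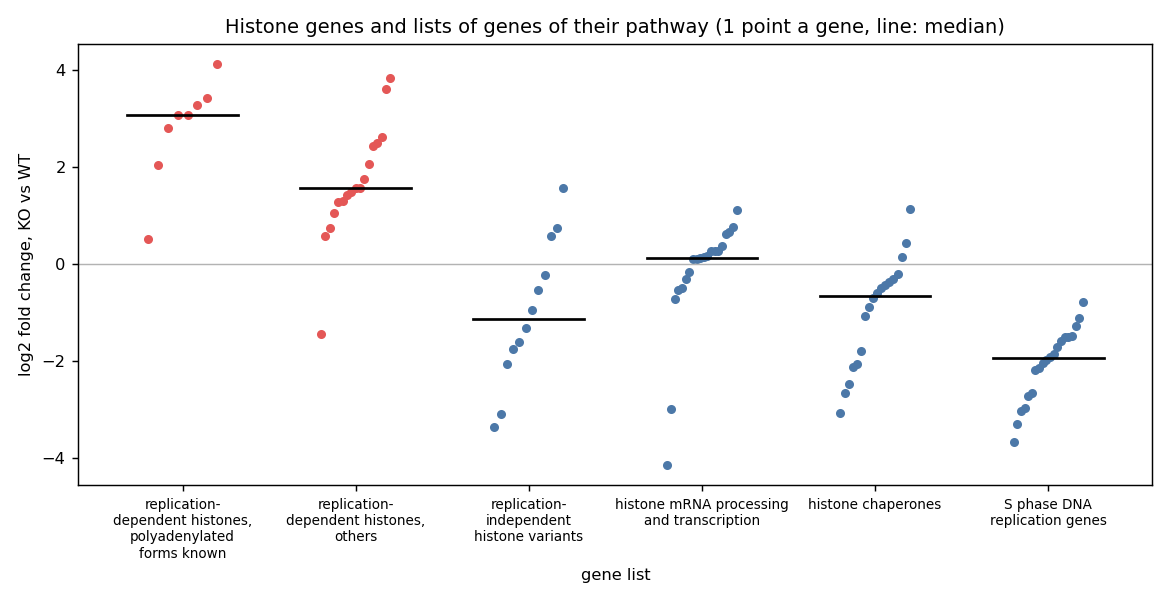
Log2 fold change in KO vs WT of each gene of 6 groups (1 point per gene, line: median of the points). Replication-dependent histones on the polyadenylated list (median 3.08) and off it (median 1.57 over the 17 with more than 3 counts in each group) lie mostly above 0, S phase genes (median -1.95) all below it.

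Markers of several cell types differed between the same groups (36.8% of all genes were higher and 39.4% lower in KO). The 12 neural progenitor markers summed to between 3462 and 3493 CPM in the knockout libraries and 8021 to 8134 CPM in WT, with 10 of 12 lower in KO, among them SOX2 at 28.4 ± 1.36 CPM in KO and 297 ± 0.425 CPM in WT. PAX6 was called higher, but not with library-size scaling (log2 fold change 0.02, adjusted p = 0.527). The 12 epithelial markers summed to between 8172 and 8635 CPM in the knockout and 34.5 to 36.7 CPM in WT, with 11 of 12 higher, and to between 55.7 and 66.1 CPM in the rescues. The 12 neuron markers, all lower in KO, summed to between 825 and 848 CPM in the knockout and 4335 to 4383 CPM in WT. The 8 mesenchyme markers, 6 of them higher and 1 lower in KO, summed to between 2107 and 2188 CPM in the knockout and 106 to 113 CPM in WT. Of 4 pluripotency markers tested, 3 were higher and their list summed to between 23.9 and 27.3 CPM in KO and 2.39 to 3.18 CPM in WT. In the rescues the progenitor list summed to between 4468 and 4687 CPM, below WT. The neuron list summed there to between 6287 and 6369 CPM, above WT. Rescue sums were 98.9 to 130 CPM for the mesenchyme list and 1.41 to 2.89 CPM for the pluripotency list. The part of these differences in the histone results was not tested. Library totals ran from 16495116 to 20832700 counts, so 3 counts in a library corresponded to 0.136 to 0.198 CPM.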

How the data were processed

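Per the labels' protocols, RNA was extracted with Trizol and libraries were made from total RNA with a TruSeq RNA kit; poly(A) selection and strand setting are not stated. Tools listed in the submitters' processing notes, without roles or order, are DESeq2, RSEM 1.2.4 and fastp 0.20.0, on build hg38/GRCh38. The deposited table holds whole-number counts per gene, made by the authors, for 60898 rows and 10 libraries of 16495116 to 20832700 counts. Some loci, such as H2AC6, H2BC8 and H2BC12, carry assembled-locus identifiers whose boundaries are not given.

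The histone genes, gene lists and tests were chosen with earlier results of these data known. Counts were fitted with edgeR 4.0.16 in R 4.3.3 (filterByExpr, TMM scaling, quasi-likelihood F test, 5 group means, 5 residual degrees of freedom, 10 libraries), and p-values were adjusted by Benjamini-Hochberg over 21063 genes, which held 99.89% of counts; calls used an adjusted p under 0.05. KO was the mean of the KO1 and KO2 group means. CPM used TMM-scaled library sizes and were not divided by length, so levels are compared within a gene. Standard errors are the size of the log2 fold change over the square root of F. Ratios of sparse genes have exact binomial intervals that cover counting error only. Genes named are the 3 with the highest mean CPM of each class, calls against the majority, the largest changes, calls between rescue and WT, the genes on the polyadenylated list and up to 4 genes of each list by adjusted p. H1-4, H2AC8, H2AC11, H2BC15, H4C5, SLBP, NPAT, ERI1, LSM11, PAX6 and SOX2 were added after their values were seen, for their role or pairing. Genes most like the histones in pattern are not given, because the libraries fall into separate clusters. The fit was tested on simulated data in which few genes, none of them sparse in WT, were changed. That test does not cover sparse genes, near-identical copies or changes in most genes. Alternatives were DESeq2 1.42.0, other scalings and filters, fits on the groups compared, each knockout line alone, a replicate block, each library left out and copies summed. Values of 1 of the 34 genes are not reported here.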

Additional observations from a re-analysis of the deposited data

Results flagged for a closer look

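In 2 places a library stood apart from the other knockout libraries of its gene. H1-2 was 25.6 CPM in KO2 R1, against 22.5 to 22.9 CPM in the other 3 knockout libraries, all of them above WT at 2.15 and 2.21 CPM. H2AC15 was 0.1732 CPM in KO2 R2, which is 3 counts, and at 0 in the other 3. The critical value used, Dixon's for groups of 4, flags about 1 in 20 groups by chance where values vary normally, which does not describe H2AC15, at 0 in 3 of the 4 libraries.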

How the results depend on the processing

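Of the 34 genes, 23 were called higher and 4 lower in KO vs WT, and the count of higher calls stayed within 1.5 times under each alternative run. The alternatives for single named genes gave the same call in 1893 cases, lost it in 68, gained it in 30 and turned the direction in 14. Library-size scaling moved the median log2 fold change of all genes by -0.175 for KO vs WT, and by 0.212 and 0.199 for KO+STAMBP and KO+CFLAR vs KO. Under it the 34 genes summed to 663.5 CPM in KO and 634.0 CPM in WT (721 and 609 CPM with TMM), and the 29 replication-dependent ones to 267.1 CPM in KO and 70.02 CPM in WT. With TMM, the 34 genes without H1-10 summed to 572.0 CPM in KO and 240.9 CPM in WT, and the 29 without H2BC21 to 251.2 CPM in KO and 40.35 CPM in WT. With no count threshold the rule gives 84 genes.

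Small counts of calls changed most. KO+STAMBP vs WT gave 3 higher and 3 lower; library-size scaling gave 1 lower and no low-count filter 6 higher. KO+CFLAR vs WT gave 2 higher and 3 lower; no low-count filter gave 5 higher and a fit on the compared groups only 4 higher. KO+CFLAR vs KO gave 2 higher, and 1 with at least 50 counts in 2 libraries; KO+STAMBP vs KO gave 2 higher, and 1 with KO1 as the only knockout line. With no low-count filter KO1 vs KO2 gave 1 higher, and KO+CFLAR vs KO+STAMBP 2 higher and 1 lower. The cause was not tested.

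Leaving out each library in turn gave 22 to 24 higher and 2 to 4 lower calls in KO vs WT, 1 to 4 higher and 19 to 24 lower in KO+STAMBP vs KO, 1 to 3 higher and 20 to 24 lower in KO+CFLAR vs KO, 0 to 4 higher and 1 to 3 lower in KO+STAMBP vs WT, and 0 to 3 higher and 1 to 3 lower in KO+CFLAR vs WT. It turned the log2 fold change in copies and weak genes: H2AC18 in KO vs WT ran from -2.858 to 10.39 (negative without KO1 R2 or KO2 R2) and in KO+CFLAR vs KO from -10.36 to 2.687; H4C15 in KO+STAMBP vs KO from -1.375 to 0.4896 and in KO+CFLAR vs KO from -1.505 to 0.2037; H4C11 in KO+STAMBP vs KO from -0.982 to 2.816; H4C12 in KO+CFLAR vs KO from -5.801 to 4.188; and H1-10-AS1 in KO+CFLAR vs KO from -0.3192 to 0.5149. Under library-size scaling SLBP in KO vs WT was -0.06611 and H2BC21 in KO+STAMBP vs KO 0.01974, and H4C15 there 0.07744 with KO2 as the only knockout line.

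Same-numbered libraries did not deviate together across the genes tested (correlations of -0.0209 to 0.0719, 0 of 10 pairs of groups over 0.1). A shared effect that is small or limited to few genes would not show in these correlations. With the replicate block, KO vs WT gave 23 higher and 4 lower, and KO+CFLAR vs KO 23 lower, against 22 without it. Summing near-identical copies, added after the data were seen, gave 23 higher and 4 lower in KO vs WT.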
